A study of Caenorhabditis elegans with 3 samples.

Results

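Binding of the nuclear zinc-finger protein MEP-1 was examined at 10 Caenorhabditis elegans genes that make germ granule proteins, out of 19973 nuclear protein-coding genes in the annotation. The genes are pgl-1, pgl-3, glh-1, glh-2, glh-4, deps-1, prg-1, wago-1, meg-1 and meg-2. They were listed by name, as germline genes known to be switched on in somatic tissue when MEP-1 or its partner LET-418 is lost, and not by any measured value. The choice was, however, made with earlier results of these data known. All 10 symbols matched a gene. Only 1 of the 10, glh-4, had a reproducible MEP-1 region inside the gene or within 5 kb upstream of it, against 30.2% of all these genes. None had a listed region at its promoter in any of 5 lists, against 40.7% of all genes with one in at least 1 list. The series maps MEP-1 by ChIP-seq in whole L4 larvae, as 1 group with 3 biological replicates, so the comparisons here are between genes and not between conditions. The animals were of strain OP102, a mixed-sex population of unknown age with the labelled genotype unc-119(tm4063) III; wgIs102. They carry MEP-1 from a transgene with a GFP-FLAG tag at its C terminus, as a note on replicate 3 says; the labels name eGFP-mep-1 as the target and mep-1 as the antibody. They do not give the promoter of the transgene or say whether untagged MEP-1 is also present. Replicate 3 came from another stock source than replicates 1 and 2 and carries a note of sonication in place of their fragment size range; the part of these in its values was not tested.

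P granules are droplets of RNA and protein that sit at the nuclear pores of germ cells and are handed to the germline blastomeres in the embryo. PGL proteins form their scaffold, GLH proteins are Vasa-like RNA helicases bound to it, and PRG-1 and WAGO-1 are Argonautes that use small RNAs to recognise transcripts passing through. MEP-1 and the chromatin remodeller LET-418 are known from mutants to keep such germline genes silent in somatic cells. Whole larvae hold somatic and germline nuclei together, so binding in one kind of nucleus cannot be told apart from binding in the other.

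The DNA just before the start of 4 of the genes is shown, because none of the lists placed MEP-1 there, together with the bases around the reproducible point source closest to the meg pair (100 bases on each side of it), for contrast. Each is written 5′ to 3′ on the strand of the gene, and the last base of an upstream stretch is the base before the annotated gene start. The pgl-1 stretch is the whole space between pgl-1 and the divergent gene him-3, which encodes a meiotic chromosome axis protein. Capitals mark matches to GAGAGA or TTTGAA on either strand. The sequences are those of the RefSeq genome, assembly WBcel235.
pgl-1 upstream (chrIV:6977319-6977507, minus strand): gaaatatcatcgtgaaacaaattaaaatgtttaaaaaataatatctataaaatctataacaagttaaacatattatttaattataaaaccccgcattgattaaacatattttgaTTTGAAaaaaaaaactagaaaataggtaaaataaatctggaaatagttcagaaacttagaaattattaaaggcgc
pgl-3 upstream (chrV:4755729-4755978, plus strand): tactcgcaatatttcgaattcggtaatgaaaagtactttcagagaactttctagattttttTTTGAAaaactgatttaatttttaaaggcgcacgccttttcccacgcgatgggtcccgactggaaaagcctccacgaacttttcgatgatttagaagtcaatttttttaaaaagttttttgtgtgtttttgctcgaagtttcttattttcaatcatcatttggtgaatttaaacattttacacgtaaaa
meg-1 upstream (chrX:13929635-13929884, minus strand): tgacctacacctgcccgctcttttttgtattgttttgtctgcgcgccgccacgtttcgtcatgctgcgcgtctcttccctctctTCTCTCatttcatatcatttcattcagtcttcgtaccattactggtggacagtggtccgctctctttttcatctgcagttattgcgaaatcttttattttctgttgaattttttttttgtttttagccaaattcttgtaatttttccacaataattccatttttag
meg-2 upstream (chrX:13926130-13926379, minus strand): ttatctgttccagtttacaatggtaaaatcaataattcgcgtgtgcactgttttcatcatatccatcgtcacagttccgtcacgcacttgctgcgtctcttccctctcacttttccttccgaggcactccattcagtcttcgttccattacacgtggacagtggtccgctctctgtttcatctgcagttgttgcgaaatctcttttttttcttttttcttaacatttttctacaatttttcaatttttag
IDR point source nearest to meg-2 (chrX:13920440-13920640, minus strand): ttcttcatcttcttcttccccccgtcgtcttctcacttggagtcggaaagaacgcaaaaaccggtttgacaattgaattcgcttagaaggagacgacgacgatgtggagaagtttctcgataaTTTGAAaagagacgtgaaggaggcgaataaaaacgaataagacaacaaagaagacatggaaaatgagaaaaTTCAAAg
The upstream stretches of meg-1 and meg-2, neighbours that encode intrinsically disordered proteins of the embryonic granules, are related. Their alignment held 179 identical bases (65.1% of its length), and the longest unbroken run in common was 21 bases, which began 122 bp before meg-1 and 97 bp before meg-2. It reads as follows.
shared run (chrX:13929736-13929756, minus strand): gtggacagtggtccgctctct
Both stretches also end in tttttag. The stretches of pgl-1 and pgl-3 were 46.4% identical, with a longest common run of 10 bases.

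The hexamers GAGAGA and TTTGAA were looked for on both strands from 250 bases before to 50 bases after each gene start; a match describes the letters and is not a binding site. GAGAGA occurred at 1 of the 10 genes, meg-1, against 21.8% of all nuclear protein-coding genes. Windows of 300 bases centred on the reproducible MEP-1 point sources held it in 46.5% of 5209 cases. TTTGAA occurred at 6 of the 10 genes (pgl-1, pgl-3, glh-2, glh-4, prg-1 and meg-1), against 62.5% of all genes and 47.5% of the point source windows. The GC content of the 10 windows was between 30.3% and 42.3%, with a median of 35.65%, and the median over all genes was 34.333%. The count of TTTGAA and the base composition of the 10 genes were thus near those of all genes.

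The authors deposited 5 lists on build ce11 that are used here. A relaxed list for each replicate and one for the pooled replicates hold 30000 regions each and by design reach into background. The optimal list keeps 5229 regions whose ranks are reproducible, as judged by the irreproducible discovery rate, and is called the IDR list. Each region has a point source, the base taken as its summit, and a score, the signal value of the authors' caller, whose scale is not given. Rank 1 is the highest score of a list, and scores can be read only within their own list: the median score was 106.635 in the IDR list, 23.6797 in the pooled list, and 11.6241, 12.6436 and 5.73026 in replicates 1, 2 and 3. Read depth is unknown from these lists. The window of a gene runs from 5000 bp upstream of its annotated start to its end, and its promoter reaches from 500 bp before to 100 bp after the start of any of its transcripts.

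In the IDR list, 1 of the 10 genes had a point source in its window, while 30.2% of all genes did. None of the 10 had one in the promoter, against 12.7% of all genes, and none in the gene body, against 6.4%. In the pooled list the count was again 1 of 10, against 49.6%. The relaxed lists of replicates 1, 2 and 3 gave 2, 3 and 4 of the 10 genes, against 52.8%, 53.5% and 60.8% of all genes. The background was thus 55.7% ± 4.43 over the 3 replicate lists (SD, n = 3), and each replicate's count for the 10 genes lay below its own background. Over all 5 lists, 4 of the 10 genes had any point source in the window, namely glh-1, glh-4, prg-1 and wago-1, against 64% of all genes. No list placed a point source in the promoter of any of the 10, and 40.7% of all genes had one there in at least 1 list. With 10 genes chosen with results known these counts are a description, and no test was made of them.

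**Figure D1:**
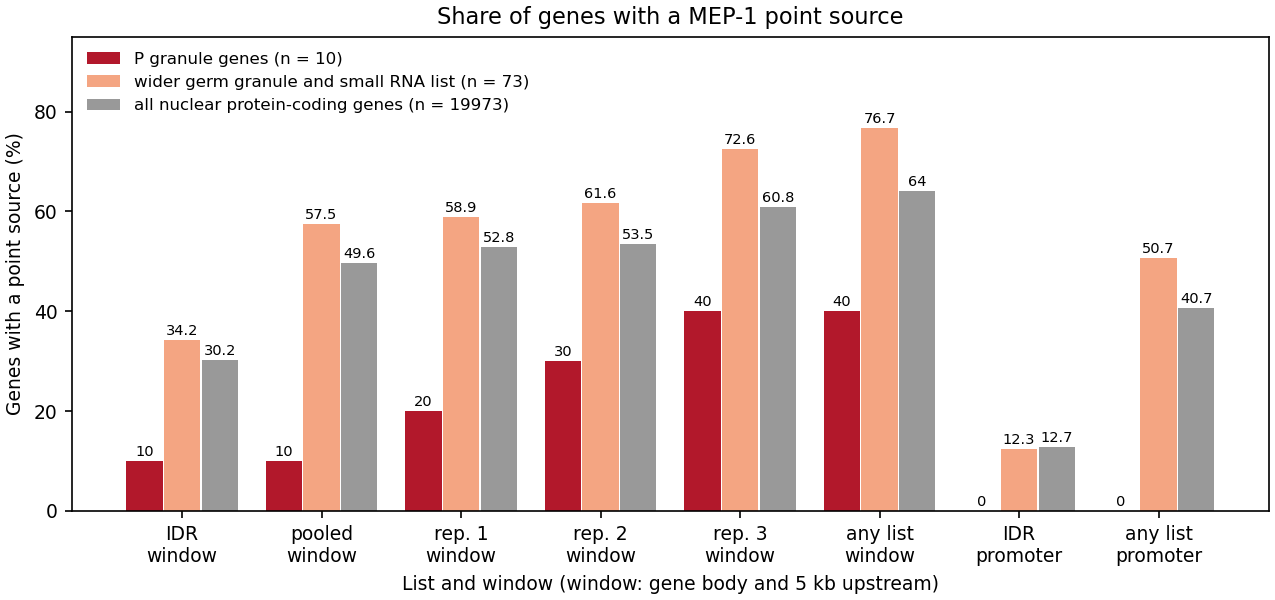
Share of genes (percent) with a point source in the window or promoter, by list, for the 10 germ granule genes, for the wider list of 73 germ granule and small RNA genes, and for all 19973 nuclear protein-coding genes. The 10 genes lie below all genes in every list shown, from 10% against 30.2% for the IDR window to 40% against 64% for any of the 5 lists.

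Because relaxed lists differ in how far they reach into background, equal numbers of regions were also taken, the 5167 highest-scoring intervals of each replicate. Of the 10 genes, glh-4 and wago-1 had such a top region in their windows in replicate 1, against 30.6% of all genes. The same 2 genes had one in replicate 2, against 29.9%. In replicate 3 glh-4 alone had one, against 31.2%. Only glh-4 had a top region in all 3 replicates, against 23.8% of all genes. As a percentile of the list, where a low value is a high score, the best rank in the window was 3.54 for glh-4 in the pooled list, against a median of 12.3 over all genes with a point source there. The median over those of the 10 genes with a point source was 10.4 in replicate 1 (2 genes), 12.7 in replicate 2 (3 genes) and 36.3 in replicate 3 (4 genes), against 13.6, 14.4 and 16.4 over all genes with one.

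The windows of the 10 genes were 7584 to 9153 bp long, with a median of 8049 bp, and those of all genes had a median of 7027 bp. Per 100 kb of window, the 10 genes held 2.59 IDR point sources (2 in 77.3 kb), against 5.33 in the windows of all genes and 5.19 over the nuclear genome. In the pooled list the density was 2.59, against 30.7 in all gene windows. The densities in replicates 1, 2 and 3 were 5.17, 10.3 and 10.3, against 30.7, 30.6 and 30.7. The IDR density rests on 2 point sources at 1 gene, and its distance from that of all genes depends on the window. With 10 kb upstream it was 4.91, against 5.25, and 2 of the 10 genes had a point source, against 39.6%. With windows stopped at the next gene it was 4.87, against 5.12, and 1 of the 10 had one, against 20.1%. With 2 kb upstream none of the 10 had one, against 22.5% of all genes. Chromosomes also differed in how often genes had an IDR point source in the window, and 6 of the 10 genes are on chromosome I, where the share over all genes was 39%. It was 28% on chromosome IV, with pgl-1, 19.8% on chromosome V, with pgl-3, and 34.2% on chromosome X, with meg-1 and meg-2. The share of 32-base words in a window that occur once in the genome was 91.5% to 99.8% for 8 of the genes, 86.3% for pgl-1 and 64.7% for glh-4, against a median of 98.2% over all genes; the sources used here give no read length, and the part of repeats in these counts was not tested.

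**Figure D2:**
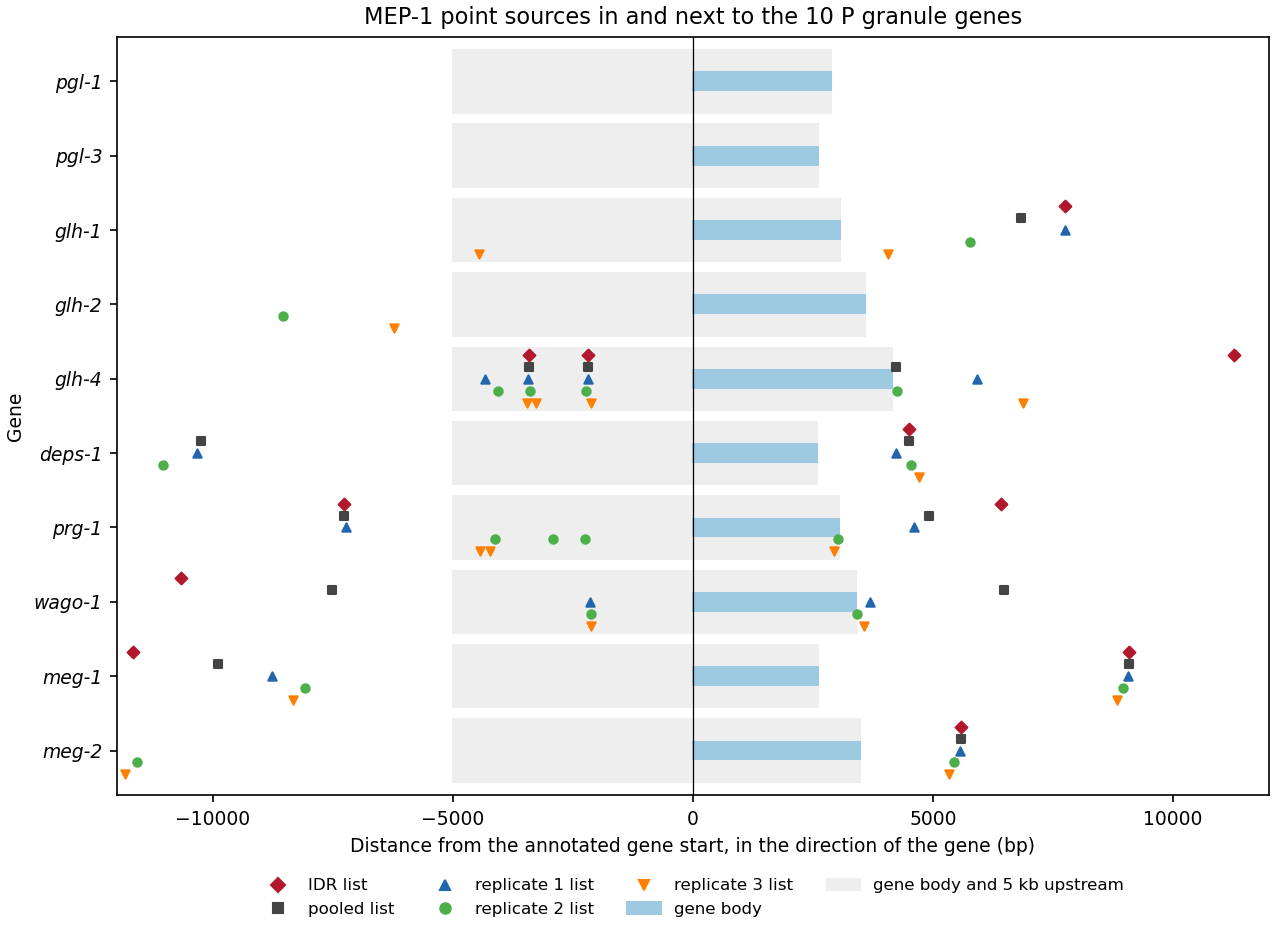
Point sources around the 10 genes in the IDR, pooled and replicate lists by distance from the gene start (bp, negative upstream), with the gene body and the 5 kb window marked; inside windows all points are drawn, outside the nearest on each side per list where the axis reaches it. The windows of pgl-1, pgl-3, glh-2, deps-1, meg-1 and meg-2 are empty in all 5 lists, and glh-4 has the only IDR points inside a window.

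Among the scaffold genes, pgl-1 (WBGene00003992, chromosome IV, 6974441 to 6977318, minus strand) was far from any listed region. Its start was 189 bp from that of him-3. The nearest point source lay 18395 bp away in the IDR list, 17592 bp in the pooled list, and 18457, 15234 and 15551 bp in replicates 1, 2 and 3. In every list but that of replicate 3 it was in an intron of jnk-1, a stress-activated kinase gene on the downstream side; the IDR region there had score 91.2 and rank 3238. The IDR region on the other side was 39410 bp upstream. The stretch around pgl-1 with no point source was therefore 57805 bp in the IDR list and 32842 to 57824 bp over the 5 lists, against a median of 53491 bp in the IDR list over all genes. Even replicate 3, whose list marks the most genes, left it empty.

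The second scaffold gene, pgl-3 (WBGene00003994, chromosome V, 4755979 to 4758587, plus strand), follows the linker histone gene hil-4 on the same strand, 525 bp behind its end. The nearest IDR point source was 24384 bp upstream, with score 193 and rank 1005, and the next one downstream was at 54871 bp. In the pooled list the nearest was 19392 bp away, and in replicates 1, 2 and 3 it was 17180, 15829 and 13598 bp away. The stretch with no point source was 32964 to 79255 bp. Set among all genes, pgl-1 and pgl-3 were at the 66.2 and 73.9 percentiles of distance to the nearest IDR point source and at the 88 and 85.7 percentiles in replicate 3.

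The helicase genes differed among themselves. At glh-1 (WBGene00001598, chromosome I, 6854478 to 6857536, plus strand), which starts 337 bp behind sacy-1, a DEAD-box helicase gene of the germline, the window was empty except in replicate 3. That replicate had 1 point source 4463 bp upstream, with score 9.43 and rank 8909, and it lay 394 bp upstream of rpb-5, which encodes an RNA polymerase subunit. The nearest IDR point source was 7758 bp downstream of the glh-1 start, with score 93.9 and rank 3110, and 77 bp upstream of let-383. At glh-2 (WBGene00001599, chromosome I, 6513928 to 6517507, plus strand) no list had a point source in the window. The nearest was 6228 to 19958 bp upstream over the 5 lists. The IDR one, with score 163 and rank 1363, was 123 bp upstream of a start of mdt-18, a Mediator subunit gene.

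The third helicase gene, glh-4 (WBGene00001601, chromosome I, 3727027 to 3731179, plus strand), was the exception, with 2 IDR point sources upstream. Its start is separated by 5869 bp from the divergent gene lin-59, which encodes a SET-domain histone methyltransferase, and both point sources lie in this intergenic space. The stronger, at position 3723610 in a region from 3723505 to 3723704, was 3417 bp upstream of glh-4 and had score 188 and rank 1063 of 5229. The weaker, at position 3724847 in a region from 3724645 to 3725048, was 2180 bp upstream and had score 97.6 and rank 2956. The gene with the nearest start was lin-59 for the stronger one, at 2453 bp, and glh-4 for the weaker one. Neither was in the promoter of either gene.

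All 3 replicates listed both places. At the stronger one, their point sources were 21, 21 and 50 bp away, with scores 72.6, 74.9 and 44.5 and ranks 1210, 1175 and 825 of 30000 in replicates 1, 2 and 3. At the weaker one they were 7, 39 and 64 bp away, with scores 35.3, 53.7 and 12.3 and ranks 3871, 2096 and 6491. The stronger place was thus within the top regions of every replicate, and the weaker one was not within those of replicate 3. Each replicate also had 1 lower point source in the window, 4342, 4059 and 3265 bp upstream in replicates 1, 2 and 3, with ranks 8123, 12037 and 6549. That of replicate 3 lay within 200 bp of the stronger IDR point source, so it is not a separate place, and those of replicates 1 and 2 were farther off. Against the IDR list's median score of 106.635, the stronger place lay above and the weaker one below.

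At deps-1 (WBGene00022034, chromosome I, 506473 to 509056, plus strand), needed for P granule assembly, the window was empty in all 5 lists. An IDR region lay just beyond the gene, 4499 bp downstream of its start, with score 64.4 and rank 5033, which is near the end of that list. It was in the 5′ UTR of Y65B4BL.7, 32 bp from the start of that gene. Replicates 1, 2 and 3 had point sources 4236, 4543 and 4702 bp downstream, with ranks 14631, 2905 and 9033. On the upstream side the nearest was 10252 to 18045 bp away. The rule counts upstream sequence and the gene alone, so the region near Y65B4BL.7 does not enter the counts.

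The Piwi gene prg-1 (WBGene00004178, chromosome I, 7585329 to 7588367, minus strand) had no point source in its window in the IDR list, the pooled list or replicate 1. Replicate 2 listed 4 there and replicate 3 listed 3, all weak. The best in replicate 2, 2917 bp upstream and 4 bp from the start of D2030.8, had score 14.8 and rank 12576. The best in replicate 3, 4226 bp upstream in an intron of D2030.8, had score 5.89 and rank 14645. Each of these replicates had 1 point source in the prg-1 3′ UTR, 3024 and 2949 bp downstream of the start in replicates 2 and 3, with ranks 20887 and 22177. These were the only point sources inside the body of any of the 10 genes. Reproducible regions stood outside on both sides: 7280 bp upstream (score 299, rank 414, 129 bp upstream of wdr-23, a repressor of the stress factor SKN-1) and 6429 bp downstream (score 108, rank 2565, 168 bp upstream of mce-1).

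At the Argonaute gene wago-1 (WBGene00011061, chromosome I, 7235384 to 7238792, plus strand), the replicate lists and the pooled list differed. Replicates 1, 2 and 3 placed a point source 2154, 2124 and 2122 bp upstream, with scores 29.2, 36.6 and 6.71 and ranks 5037, 3811 and 12844. It lay 109, 139 and 141 bp upstream of hasp-1, the gene of the histone kinase haspin. All 3 replicates thus marked this place, whereas the pooled and IDR lists had no point source in the window. The nearest pooled ones were 7517 bp upstream and 6491 bp downstream, and the nearest IDR one was 10674 bp upstream, in the 5′ UTR of swsn-9. Each replicate also had a point source past the end of wago-1, at 3694, 3412 and 3573 bp from its start, with ranks 7868, 8764 and 18246.

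**Figure D3:**
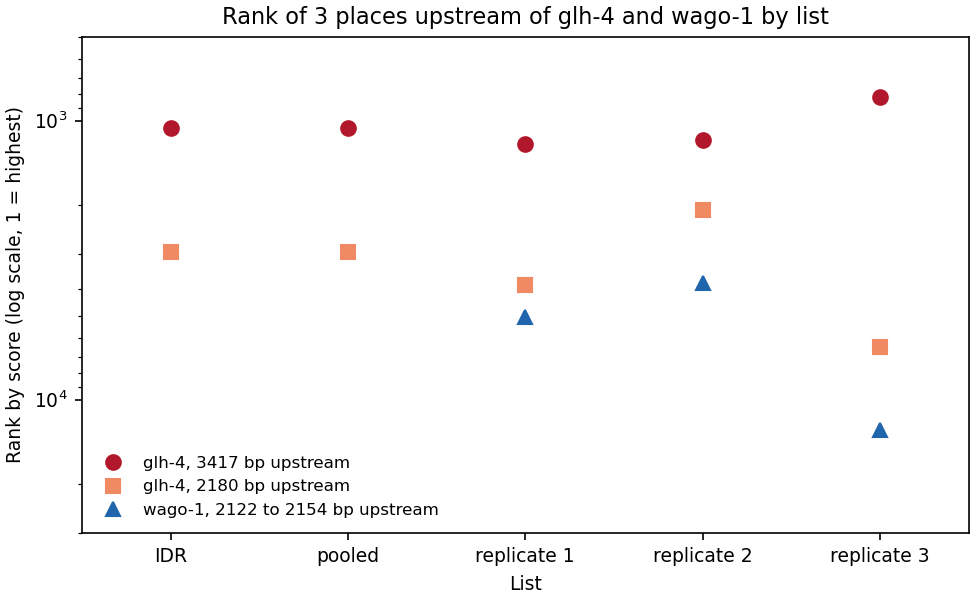
Rank by score (log axis, rank 1 the highest score) of 3 places in each list: the stronger and the weaker place upstream of glh-4 and the place upstream of wago-1. The stronger glh-4 place ranks 1063 in the IDR and pooled lists and 1210, 1175 and 825 in the replicates, and the wago-1 place appears in the 3 replicate lists alone, with ranks 5037, 3811 and 12844.

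The embryonic granule genes meg-1 (WBGene00010492, chromosome X, 13927036 to 13929634) and meg-2 (WBGene00010493, chromosome X, 13922643 to 13926129) are both on the minus strand, 906 bp apart, and share most of their surroundings. Neither window held a point source in any of the 5 lists. The nearest IDR point source for both was at position 13920540, with score 164 and rank 1348, which is 9094 bp downstream of the meg-1 start and 5589 bp downstream of the meg-2 start. It is the point source whose surroundings are printed above, in a region from 13920471 to 13920627, lies beyond the end of meg-2, and is 710 bp upstream of the microRNA gene cel-mir-47. The closest point sources of replicates 1, 2 and 3 were 32, 62 and 50 bp from it, with scores 60.9, 80.7 and 26 and ranks 1633, 1047 and 2247. On the upstream side, the nearest IDR point source had rank 4398 and was 11665 bp from meg-1, past the end of elt-3, a GATA factor gene of the epidermis. The pair is 1 locus in this respect and does not give independent values.

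By distance to the nearest point source alone, the 10 genes lay near the typical gene in the IDR list and farther out in the relaxed lists. The nearest IDR point source on either side was 2180 to 24384 bp from their starts, with a median of 8426 bp, against a median of 9887 bp over all genes. In 8 of the 10 genes it was more than 5000 bp away, and this held for 64.9% of all genes. The stretch with no point source around a start was by its median shorter than for all genes in every list but that of replicate 3. In the IDR list the median was 23297 bp for the 10 genes, against 53491 bp for all genes. It was 18999 bp against 23330 bp in the pooled list, 17843 against 20015 bp in replicate 1 and 17035 against 19190 bp in replicate 2. In replicate 3 it was 17164 bp, against 12411.5 bp. The median distance to the nearest point source was 6664.5 bp in the pooled list, against 3762 bp for all genes, and 6653, 5607.5 and 5015.5 bp in replicates 1, 2 and 3, against 2977, 2818 and 1814 bp. In replicate 3, all 10 genes lay above the 50th percentile of all genes, from 52.3 for glh-4 to 88 for pgl-1, and in the IDR list 4 of the 10 did. Below it were glh-4 in the pooled list, glh-4 and wago-1 in replicate 1, and glh-4, prg-1 and wago-1 in replicate 2.

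**Figure D4:**
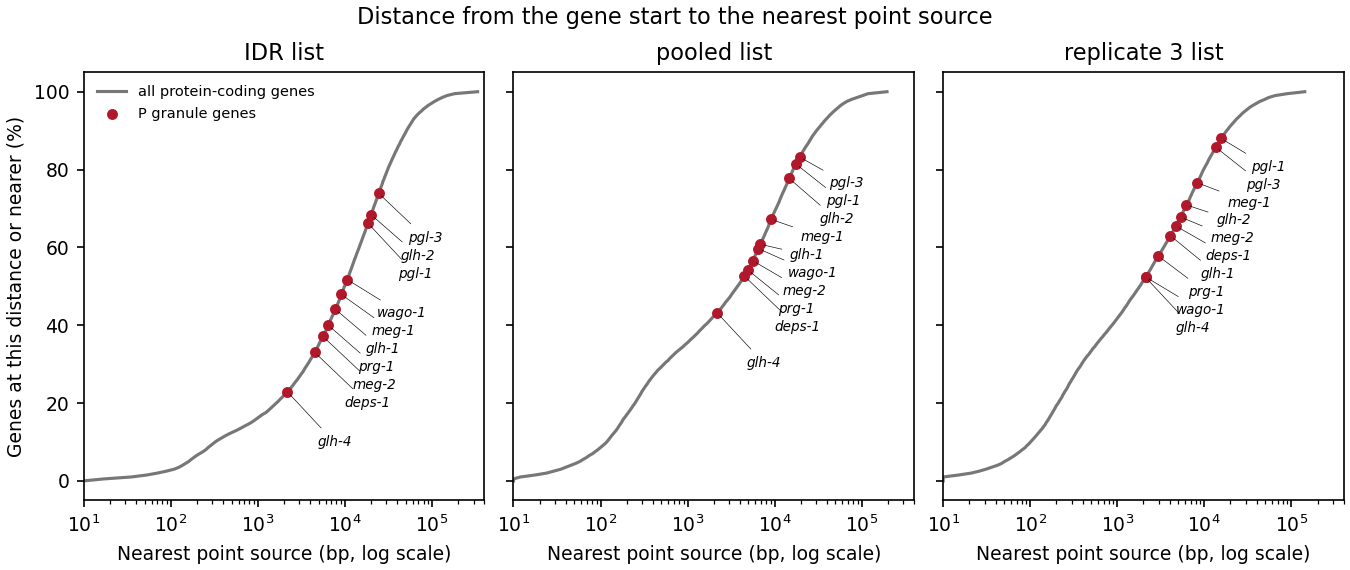
Cumulative share of all nuclear protein-coding genes (percent, line) by distance from the gene start to the nearest point source on either side (bp, log axis), with the 10 germ granule genes as points, for the IDR, pooled and replicate 3 lists. The medians of the 10 genes are 8426 bp against 9887 bp for all genes in the IDR list and 5015.5 bp against 1814 bp in replicate 3.

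The other genes of the same pathways were taken from a list of germ granule and small RNA genes, of which 73 matched a symbol. In the IDR list 25 of the 73 (34.2%) had a point source in the window, against 30.2% of all genes, and 9 (12.3%) had one in the promoter, against 12.7%. In the pooled list 42 (57.5%) had one in the window, against 49.6% of all genes. In at least 1 of the 5 lists 56 (76.7%) had one, against 64%. The wider list thus lay near or above the shares of all genes while the 10 genes lay below them. No test of this difference was made. The 6 promoter point sources with the highest IDR scores were those of mut-15, a mutator focus gene (score 371, rank 230), tofu-1 of the piRNA pathway (249, 608), ekl-1 of the CSR-1 pathway (221, 761), the Nanos gene nos-3 (188, 1066), the helicase gene vbh-1 (160, 1397) and the RNAi gene rde-10 (114, 2376). The nearest gene start was that of another gene at 4 of the 9 promoter point sources, all of them among these 6: fib-1 at mut-15, ruvb-1 at tofu-1, prpf-4 at ekl-1 and mrpl-17 at vbh-1. Family members of the 10 genes on that list, named after their values were seen, were mixed: pgl-2 had an IDR point source 3144 bp upstream with score 172 and rank 1244 and point sources in the window in all 3 replicates, whereas glh-3, meg-3 and meg-4 had none in the window in any of the 5 lists. Of 8 other Argonaute genes on that list, 1 (ergo-1) had an IDR point source in the window, against 30.2% of all genes. All but alg-4, 7 of the 8, had one in at least 1 of the 5 lists, against 64% of all genes and 76.7% of the wider list.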

How the data were processed

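MEP-1-GFP ChIP-seq of whole L4 larvae was deposited as region lists. Per the labels, the authors made an optimal IDR list from relaxed lists, called per replicate and on pooled replicates, on builds ce11 and ce10; the ce10 lists were not used here. The deposited lists give per region a score (the signal value) and a −log10 q-value, which saturates, so regions were ranked by score. For the aligner, caller and settings, the IDR threshold and the read length, nothing is given in the sources used here. The control is not analysed here. Coordinates are 1-based ce11, with genes from Ensembl release 115 for WBcel235, the same assembly. Windows, promoters and top regions are defined in the text. The 10 genes, the wider list (wago-3 and zsp-1 matched no symbol) and the motifs were chosen with earlier results of these data known, so values are counts, ranks and distances beside all nuclear protein-coding genes, with no test. Genes named are the 10, those nearest to their point sources and the 6 genes of the wider list with the best promoter point sources (mep-1, allowed for scale, was left out). Flanking genes beyond the windows and family members (PGL, GLH, MEG and Argonaute) were named after their values were seen. The window, list, threshold, promoter and replicate choices were varied. Counting was tested on simulated data. Python 3.11.15, pandas 2.3.3, numpy 2.4.6 and matplotlib 3.10.9 were used.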

Additional observations from a re-analysis of the deposited data

How the results depend on the processing

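Of 41 alternative values, 8 moved beyond a tolerance and 33 stayed within it: 1.5 times for counts, and 1 SD between replicates for the density (1.49 per 100 kb) and the rank percentile (14.3 points). These SDs are wide, so values within them can still differ much. Several alternatives used a part of the main list or window and could only keep or lower a count, so the 33 are not independent checks. The count of genes with an IDR point source in the promoter was 0 of 10 under all 9 alternatives tried. The share over all genes was 12.7% in the main setting and was not computed for these alternatives. Those that used a part of the main list or promoter could only keep the 0. The count in the window, 1 (glh-4), was 0 with 2 kb upstream, against 22.5% of all genes. It was 2 with 10 kb upstream, where prg-1 joined, against 39.6% of all genes. Both counts follow from the distances above. The density of 2.59 IDR point sources per 100 kb was 0 with 2 kb upstream, 4.91 with 10 kb, against 5.25 for all genes at 10 kb, and 4.87 with windows that stopped at the next gene, against 5.12 for all genes so treated, so the gap in density to all genes depends on the 5 kb extent. With only the higher-scoring IDR regions it was 1.29. The IDR list was not remade with a replicate left out. Instead, IDR regions that overlapped a top region in each of the other replicates were kept, so the value could only stay or fall. It was 1.29 without replicate 1 or without replicate 2, and 2.59 without replicate 3. The weaker of the 2 glh-4 places was lost where replicate 3 was required, since its rank there, 6491, was outside the top regions. The count of genes with a top region in all 3 replicates was 1, against 23.8% of all genes. It was 0 with 2 kb upstream. With 1 replicate left out it was 1 to 2, since wago-1 joined glh-4 without replicate 3. The share over all genes was not computed for these alternatives. The median best rank percentile in the window was 3.54 in the pooled list (1 gene), 10.4 and 12.7 in replicates 1 and 2, and 36.3 in the list of replicate 3 (4 genes); the genes counted differ between lists, and at 2 kb no gene had a pooled point source to rank. With 1 group, no paired analysis was possible because no groups are compared. Read depth is unknown, so an empty window says that no region was listed, not that MEP-1 was absent.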

Other observations

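The wago-1 place raised the question of how often all 3 replicates list a place that the pooled list lacks; this was looked at after the data were seen. Point sources of replicate 1 with rank 13000 or better were kept where replicates 2 and 3 each had one of such rank within 200 bp. This gave 6511 places, and 114 of them (1.75%) had no pooled point source within 200 bp. With a rank limit of 10000 it was 81 of 5326 (1.52%), and with 5000 it was 46 of 3018 (1.52%). The wago-1 place, of rank 12844 in replicate 3, meets only the limit of 13000. At the limit of 13000, the stretch of the pooled list without a point source around the places it lacked had a median of 26818 bp. It was 1107 bp around the places that the pooled list held. The places were sorted by their nearness to a pooled point source, so a part of this difference is built in. The gap around the wago-1 start in the pooled list was 14008 bp. In the other direction, the IDR list had 58 of 5209 nuclear point sources (1.11%) with none within 200 bp in replicate 1, 49 (0.941%) in replicate 2 and 2.21% of them in replicate 3, and 0 that were missing from all 3. The cause was not tested.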
